A study of Homo sapiens with 4 samples.

Results

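The 10 genes GPI, ALDOA, ALDOC, TPI1, GAPDH, PGK1, PGAM1, ENO1, ENO2 and PKM, which encode the glycolytic enzymes from glucose-6-phosphate isomerase to pyruvate kinase, were followed in U251 cells with and without knockdown of PRMT3. They were selected by gene name, and each name matched 1 of the 15575 genes of the count table. U251 is an established human glioblastoma (GBM) cell line. Its transcriptome was profiled by RNA-seq in 2 Ctrl libraries, from cells given a control shRNA by lentivirus, and 2 PRMT3-KD libraries, from cells given shRNA against PRMT3, an arginine methyltransferase, for 72 h. Both groups carried a lentivirus, the Ctrl titles name the vector pGreen, the hairpin in the PRMT3-KD libraries is not named in the sources used here, and all libraries come from 1 cell line. Nothing says that the libraries of a group came from separate cultures, so p-values measure the spread between these libraries, which may be technical.

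Glycolysis splits a molecule of glucose into pyruvate in the cytoplasm and yields ATP and NADH. Its first, preparatory steps consume ATP, and the steps from glyceraldehyde-3-phosphate dehydrogenase to pyruvate kinase give it back. Glioma cells, like many tumor cells, run glycolysis at a high rate even when oxygen is present, and several of these genes are textbook targets of the transcription factors HIF1A and MYC. Aldolase and enolase each occur as isozymes from separate genes, of which ALDOC and ENO2 are best known from brain, in astrocytes and neurons respectively.

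Total counts were 27405629 and 27221921 in Ctrl and 24804250 and 29756313 in PRMT3-KD libraries. PRMT3 had 535 counts in each Ctrl library and 77 and 45 in the PRMT3-KD libraries, or -3.08 ± 0.314 on the log2 scale (estimate ± standard error, as below, with adjusted p = 0.0177 from edgeR). The Ctrl libraries were far closer to each other than the PRMT3-KD libraries, with a biological coefficient of variation of 0.0107 against 0.204. Of 8 glioma or astrocytic markers, 7 were present at 1 CPM or more in Ctrl (CPM are counts scaled to a common library total with edgeR's TMM factors), with a summed level of 8473 to 8484 CPM in Ctrl and 7397 to 7850 CPM in PRMT3-KD. Most of this sum was VIM and CD44, and among the others SOX9 fell past the threshold (log2 fold change -0.65, adjusted p = 0.0215, edgeR), while GFAP had 13.1 and 14.3 CPM in Ctrl and 1.26 and 5.39 CPM in PRMT3-KD (adjusted p = 0.0958, edgeR). AQP4 was absent, with 0, 0, 0 and 1 counts.

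Of the 10 genes, 4 (GPI, GAPDH, PGK1 and ENO1) fell past the threshold in PRMT3-KD cells and 0 rose past it. None of the 10 genes was higher at an unadjusted p under 0.05 in edgeR either, and 0 rose past the threshold with DESeq2 or limma-voom. The threshold was an adjusted p under 0.05 from edgeR's quasi-likelihood test with a change of over 1.5-fold. Of all 13172 genes tested, 5.97% were lower and 4.97% were higher by this rule. With the adjusted p alone TPI1 was added, giving 5 of 10, against 8.91% of all genes lower by that rule. In 8 of 10 genes both PRMT3-KD libraries lay below both Ctrl libraries, which held for 33.8% of all genes tested. The median log2 fold change of the 10 genes was -0.53, against 0.0055 over all genes tested. ENO1, GAPDH, PGK1 and PKM2, an isoform of PKM, are among the genes the study itself named as lower from these libraries. The count is therefore not independent evidence of a direction. PKM, counted per gene without separating isoforms, was not lower here. All 10 genes passed the filter on low counts. ALDOC, with 16 and 20 counts in Ctrl and 10 and 7 in PRMT3-KD, would not have passed on its PRMT3-KD libraries alone. It is counted among the 8 genes and in the median above, where its direction supports nothing. The calls rest on both Ctrl libraries: when either of them was left out, all calls in edgeR were lost, for the 10 genes and over the whole table.

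**Figure D1:**
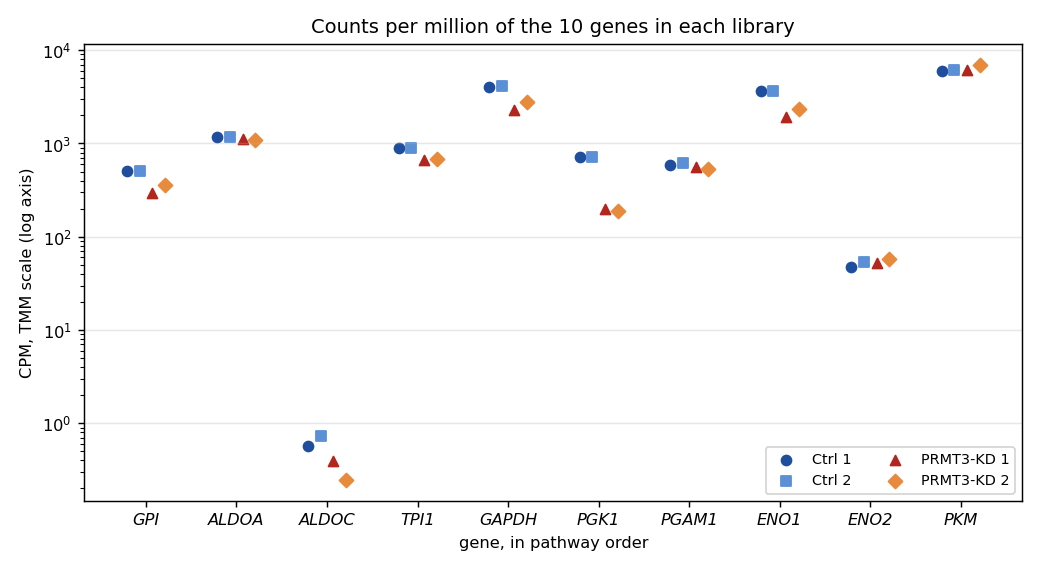
CPM on the TMM scale (vertical log axis) of the 10 genes in pathway order, with 1 point for each of the 4 libraries. The Ctrl points of most genes nearly coincide, the PRMT3-KD points of PGK1 sit at 198 and 190 CPM against 721 CPM in Ctrl, and ALDOC lies under 1 CPM throughout.

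The stretch upstream of the start of transcription is shown for the 2 largest decreases past the threshold, PGK1 and ENO1, and for PKM, which did not fall. These genes are textbook targets of HIF1A. Each run is the 250 bases before the start of the canonical transcript in GRCh37, read 5′ to 3′ on the gene's strand, and capitals mark the core of the hypoxia response element (HRE) to which HIF1A is known to bind, searched as ACGTG or GCGTG on both strands.
PGK1 (chrX:77359495-77359744, plus strand): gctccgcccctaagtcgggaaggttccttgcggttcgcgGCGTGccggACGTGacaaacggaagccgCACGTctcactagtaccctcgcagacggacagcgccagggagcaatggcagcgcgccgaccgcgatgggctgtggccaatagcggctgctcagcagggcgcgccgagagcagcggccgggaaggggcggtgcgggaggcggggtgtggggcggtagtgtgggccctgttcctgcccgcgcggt
ENO1 (chr1:8938746-8938995, minus strand): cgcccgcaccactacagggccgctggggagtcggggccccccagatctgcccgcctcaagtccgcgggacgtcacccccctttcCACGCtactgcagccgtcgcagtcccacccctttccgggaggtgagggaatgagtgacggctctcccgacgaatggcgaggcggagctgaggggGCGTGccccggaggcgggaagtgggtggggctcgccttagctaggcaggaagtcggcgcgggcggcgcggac
PKM (chr15:72523532-72523781, minus strand): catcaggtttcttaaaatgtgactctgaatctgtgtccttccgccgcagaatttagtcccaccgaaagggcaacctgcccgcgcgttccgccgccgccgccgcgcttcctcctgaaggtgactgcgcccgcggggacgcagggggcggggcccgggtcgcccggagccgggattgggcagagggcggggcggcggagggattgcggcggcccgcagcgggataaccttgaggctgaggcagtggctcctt
These runs held 3 matches in PGK1, 2 in ENO1 and 0 in PKM. Among the genes not shown, the same stretch held 1 match in GPI, which was past the threshold. Of those not past it, ALDOC had 5 matches, PGAM1 had 2, ALDOA and ENO2 had 1 each and TPI1 had 0. In the window that goes on to 50 bases after the start, PGK1 had 4 matches and PKM had 1. The window is given for the 9 genes other than GAPDH, and 8 of the 9 had at least 1 match, TPI1 being the exception, against 63.5% of 13118 promoters of the same length. The 2 genes with at least 4 matches were PGK1 and ALDOC, whose 5 matches include a pair that overlap in 1 E-box (CACGTG), and 7.13% of all promoters had that many. GPI, PGK1 and ENO1, which were past the threshold, had a match, and so did ALDOA, PGAM1, ENO2 and PKM, which were not past it. The GC box GGGCGG, known as a site of SP1, stood in all 9 windows and in 72.9% of all promoters. A match is a run of letters, and binding was not measured. Whether HIF1A had a part in the changes of these genes was not tested.

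**Figure D2:**
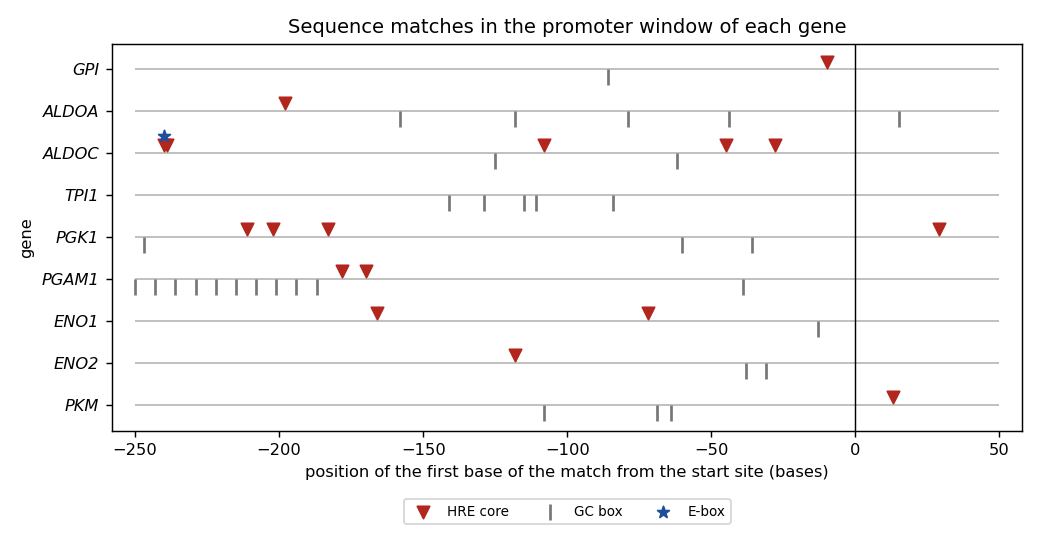
Position of sequence matches in the promoter window of the 9 genes other than GAPDH, in bases from the start of transcription (horizontal axis, start at 0), for the HRE core, the GC box and the E-box. The matches of PGK1 gather in the upstream part with 1 after the start, and TPI1 has GC boxes and no HRE core.

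GPI encodes the isomerase that turns glucose-6-phosphate into fructose-6-phosphate and lies at chr19:34850385-34893318 on the plus strand of GRCh37. Its level was 511 and 507 CPM in the Ctrl libraries and 293 and 357 CPM in the PRMT3-KD libraries. Both PRMT3-KD libraries were lower, library 1 more so, and the groups did not overlap. In the edgeR fit the log2 fold change was -0.65 (± 0.116 SE, adjusted p = 0.0339, edgeR), so the level fell by 36.1%. Without PRMT3-KD replicate 1 it was -0.51, which is under 1.5-fold.

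Aldolase cleaves fructose-1,6-bisphosphate into a pair of triose phosphates. ALDOA, the form of muscle and most cultured cells, at chr16:30075485-30081778 on the plus strand, stood at 1184 and 1186 CPM in Ctrl and at 1105 and 1081 CPM in PRMT3-KD. The PRMT3-KD libraries were slightly lower with no overlap. Their log2 fold change was -0.12 (95% interval -0.30 to 0.06, adjusted p = 0.279, edgeR). ALDOC, at chr17:26900133-26903966 on the minus strand, was barely detected, as 16 and 20 counts were found in Ctrl against 10 and 7 in PRMT3-KD. Its PRMT3-KD counts were lower without overlap, but the log2 fold change of -1.03 had a 95% interval from -2.12 to 0.06 (adjusted p = 0.149, edgeR), so at this depth a change could not be told from none. Without PRMT3-KD replicate 1, which leaves 1 PRMT3-KD library with 7 ALDOC counts, the log2 fold change was -1.39. ALDOC took 0.0487% and 0.0613% of the aldolase counts (ALDOA plus ALDOC) in Ctrl and 0.0356% and 0.0228% in PRMT3-KD. The exact two-sided permutation test of this share gave p = 0.333, the smallest that 2 libraries against 2 allow.

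TPI1, triose-phosphate isomerase, interconverts the products of aldolase and lies at chr12:6976283-6980112 on the plus strand. Its level was 898 and 887 CPM in Ctrl and 667 and 680.4 CPM in PRMT3-KD. The PRMT3-KD libraries were close to each other and both below Ctrl. The log2 fold change was -0.41 (± 0.0671 SE, adjusted p = 0.0302, edgeR), a level that fell by 24.5%, short of 1.5-fold. With the replicate number as a block the adjusted p was 0.0734 (edgeR). Exons of TPI1 overlap SPSB2 on the other strand, which had 64 to 116 counts in these libraries, far fewer than the 16950 to 24888 counts of TPI1.

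GAPDH, glyceraldehyde-3-phosphate dehydrogenase, makes the NADH of glycolysis and is widely used as a reference gene in qPCR. It lies at chr12:6643678-6647540 on the plus strand, within 389.2 kb of TPI1 and ENO2. Its level was 4033 and 4086 CPM in Ctrl and 2284 and 2787 CPM in PRMT3-KD. Both PRMT3-KD libraries were lower, library 1 again more so. GAPDH had a log2 fold change of -0.68 (± 0.119 SE, adjusted p = 0.0326, edgeR), and without PRMT3-KD replicate 1 it was -0.54, under 1.5-fold. The annotation holds 65 pseudogenes named after GAPDH, of which 1 is in the table, with 2 counts in all. How reads that match several copies were counted is not given in the sources used here, so its level is uncertain to that extent.

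PGK1, phosphoglycerate kinase, makes the first ATP of the lower pathway and had the largest decrease of the 10 genes. It lies at chrX:77166236-77384792 on the plus strand. Its level was 721 CPM in both Ctrl libraries and 198 and 189.8 CPM in the PRMT3-KD libraries. The groups were far apart and the libraries of each group close together. The log2 fold change was -1.89 (± 0.0711 SE, 95% interval -2.08 to -1.70, adjusted p = 0.0140, edgeR), so the level fell by 73.1%, and only 30 of the 13172 genes had a log2 fold change as low or lower, PGK1 included. Without Ctrl replicate 1 or 2 the log2 fold change stayed at -1.90 with adjusted p of 0.0760 and 0.0540 (edgeR). Exons of PGK1 overlap ATP7A on the same strand, which had 554 and 518 counts in Ctrl and 321 and 409 in PRMT3-KD, against 19975 and 19841, and 5033 and 5392, of PGK1.

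PGAM1, phosphoglycerate mutase, moves the phosphate of 3-phosphoglycerate to the next carbon and lies at chr10:99185948-99193201 on the plus strand. Its level was 595 and 613 CPM in Ctrl and 566 and 537 CPM in PRMT3-KD. The PRMT3-KD libraries lay just below Ctrl. Its log2 fold change was -0.13 (95% interval -0.32 to 0.06, adjusted p = 0.258, edgeR). The annotation holds 13 pseudogenes named after PGAM1 and none of them is in the table. It also holds 5 named after PKM, 4 each after TPI1 and ENO1, and 2 each after ALDOA and PGK1, with none in the table. The limit given for GAPDH on reads that match several copies holds for these genes too.

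Enolase dehydrates 2-phosphoglycerate to phosphoenolpyruvate. ENO1, the form of most tissues, at chr1:8921059-8939249 on the minus strand, had 3614 and 3640.0 CPM in Ctrl and 1911 and 2331 CPM in PRMT3-KD. Both PRMT3-KD libraries were well below Ctrl. ENO1 had a log2 fold change of -0.77 (± 0.118 SE, adjusted p = 0.0262, edgeR), so the level fell by 41.5%, and the change stayed past 1.5-fold in each PRMT3-KD library taken alone, at -0.92 and -0.64 against the Ctrl mean. ENO2, the neuronal form, at chr12:7022909-7032861 on the plus strand, had 47.1 and 53.5 CPM in Ctrl and 52.8 and 57.7 CPM in PRMT3-KD. The groups overlapped. Its log2 fold change was 0.14 (95% interval -0.14 to 0.42, adjusted p = 0.402, edgeR).

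With ENO1 lower and ENO2 near its Ctrl level, ENO2 took 1.29% and 1.45% of the enolase counts (ENO1 plus ENO2) in Ctrl and 2.69% and 2.42% in PRMT3-KD. This share was 1.87 times higher and the groups did not overlap, but the exact two-sided permutation test can only give p = 0.333 here. Among neuronal markers, the summed level was 336 and 346 CPM in Ctrl and 213 and 246 CPM in PRMT3-KD, nearly all of it TUBB3, and STMN2 had 1, 0, 0 and 0 counts. Oligodendrocyte markers summed to at most 0.774 CPM and myeloid ones to 29.5 to 33.4 CPM, while endothelial markers summed to 27.5 and 29.6 CPM in Ctrl and to 19.6 and 37.9 CPM in PRMT3-KD. The part of these markers, or of the glioma and astrocytic ones, in the enolase and aldolase shares and in the levels of the 10 genes was not tested. In bulk RNA, fewer cells of a type and less RNA per cell cannot be told apart.

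PKM, pyruvate kinase, makes the last ATP and gives pyruvate. It lies at chr15:72491370-72524160 on the minus strand and is spliced into the PKM1 and PKM2 isoforms, which these gene counts do not separate. Its level was 6055 and 6082 CPM in Ctrl and 6122 and 6984 CPM in PRMT3-KD. Both PRMT3-KD libraries lay above Ctrl, library 1 only just. PKM had a log2 fold change of 0.11 (95% interval -0.14 to 0.36, adjusted p = 0.446, edgeR). For ALDOA, PGAM1, ENO2 and PKM the 95% intervals lay within 1.5-fold in both directions, as did that of TPI1 by a narrow margin. The edgeR fit takes 1 spread for both groups. The biological coefficient of variation was 0.204 in PRMT3-KD and 0.0107 in Ctrl, so these intervals may be too narrow.

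**Figure D3:**
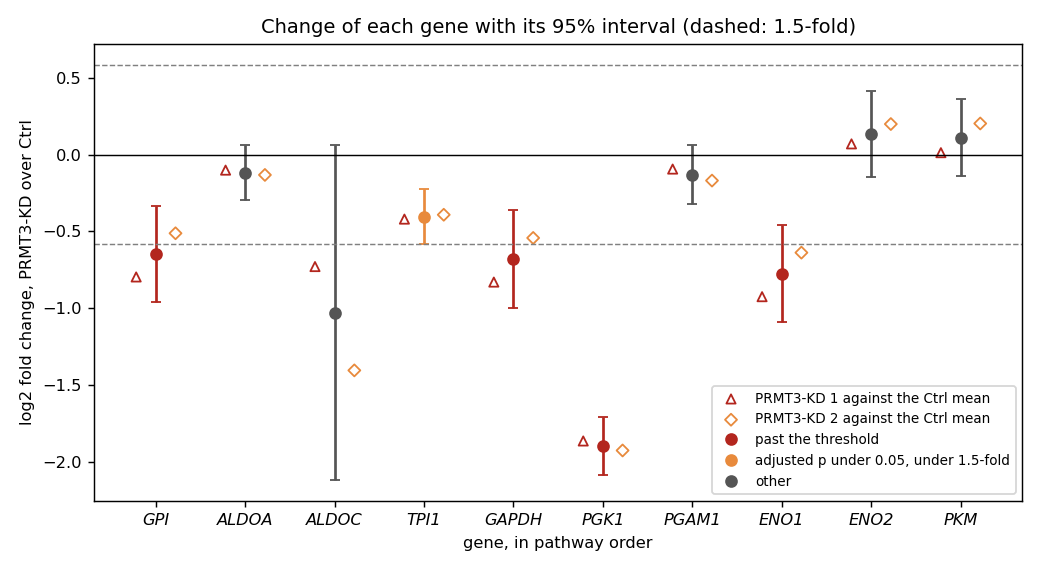
log2 fold change of PRMT3-KD over Ctrl (vertical axis) for each gene in pathway order, with filled points and 95% intervals from the edgeR fit and open symbols for each PRMT3-KD library against the Ctrl mean. PGK1 stands at -1.89 with a narrow interval, GPI, GAPDH and ENO1 lie between -0.77 and -0.65 with library 1 lower than library 2, and PKM and ENO2 lie just above 0.

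The PRMT3-KD libraries differed from each other in the same direction for the 3 moderate decreases. The difference of library 2 minus library 1 on the log2 scale was 0.28 for GPI, 0.29 for GAPDH and 0.29 for ENO1, and 0.19 for PKM, while for PGK1 it was -0.06 and for TPI1 0.03. Counts of the PRMT3-KD libraries differed beyond counting error (chi-square test of each gene) for 8 of the 10 genes, against 61.6% of all genes tested, and in Ctrl for 3 of the 10, against 8.29% of all genes tested. TPI1 and ALDOC were the genes that did not differ in PRMT3-KD. More counts let this test find smaller differences. Most of the 10 genes had high counts, so the shares of all genes are not a like comparison.

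All 10 genes together took 1.79% and 1.80% of all counts in Ctrl and 1.35% and 1.43% in PRMT3-KD. Their summed level was 17660.1 and 17776 CPM in Ctrl and 13199 and 15005 CPM in PRMT3-KD, so the sum fell by 20.4% (log2 ratio -0.33) with no overlap. PKM, which did not fall, took 34.3% and 34.2% of the counts of the 10 genes, not per length, in Ctrl and 46.4% and 46.5% in PRMT3-KD. Without PKM the log2 ratio was -0.63. For reference, of the 256 genes with at least the mean Ctrl CPM of GPI (not per length), 8.59% were past the threshold as lower and their median log2 fold change was 0.0045.

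To rank the 10 genes against each other, levels were taken per kb of the canonical transcript. On that scale GAPDH led in Ctrl with 3159 CPM per kb, then PKM with 2633 and ENO1 with 2037, followed by ALDOA with 723, TPI1 with 661, PGAM1 with 335, PGK1 with 149.9, GPI with 123, ENO2 with 21.9 and ALDOC with 0.406. On this length all neighbours in the order differed by more than their spread over the Ctrl libraries. In PRMT3-KD cells PKM led with 2843 CPM per kb, ahead of GAPDH with 1973, and GPI with 78.8 stood above PGK1 with 40.3. Per kb of all annotated exons, GAPDH stayed ahead of PKM in both groups, PGK1 stayed ahead of GPI, and TPI1 stood above ALDOA in Ctrl, so these orders depend on the length used.

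The ratio of each enzyme to the next step, taken within a library, does not depend on the scaling between libraries. It was taken for 7 neighbouring pairs, using ALDOA and ENO1 for the steps with isozymes, as a description with no test and no comparison with other gene pairs. The ratio of GAPDH to PGK1 per kb was 20.95 and 21.2 in Ctrl and 43.2 and 55.0 in PRMT3-KD, a log2 change of 1.21. The ratio of PGK1 to PGAM1 was 0.454 and 0.441 in Ctrl and 0.131 and 0.132 in PRMT3-KD, a log2 change of -1.76. The ratio of ENO1 to PKM changed by -0.89 on the log2 scale, from 0.772 and 0.775 to 0.404 and 0.432. The log2 changes of the other pairs were -0.54 for GPI to ALDOA, 0.29 for ALDOA to TPI1, 0.28 for TPI1 to GAPDH and 0.65 for PGAM1 to ENO1.

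**Figure D4:**
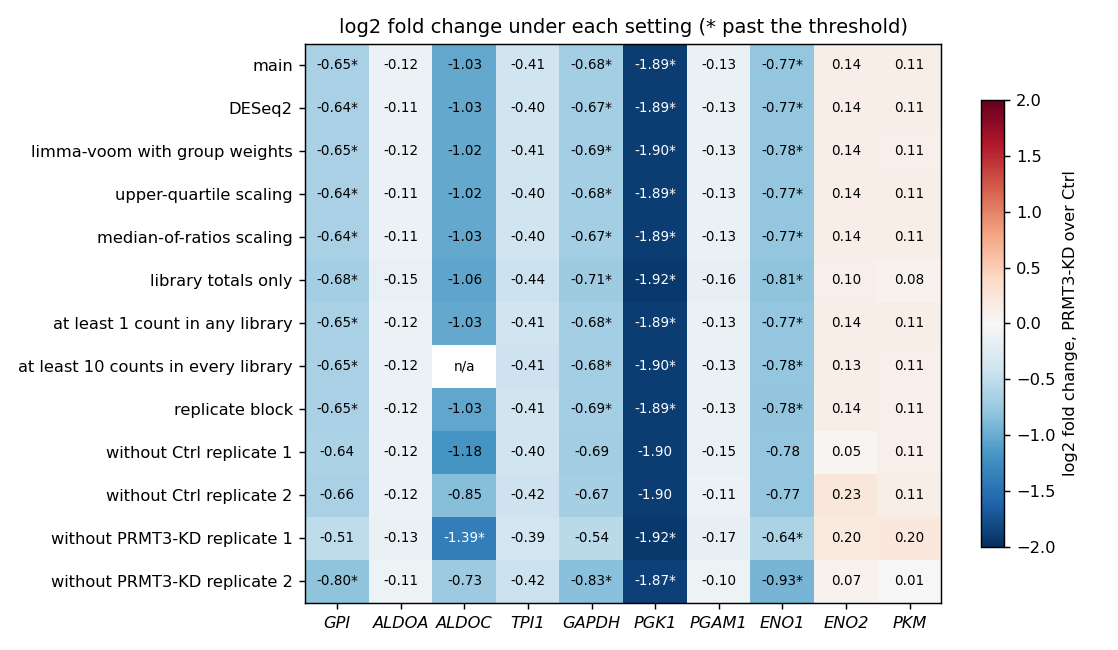
log2 fold change of PRMT3-KD over Ctrl for each gene (columns) under the main setting and 12 other settings (rows), with an asterisk where the threshold was passed. GPI, GAPDH, PGK1 and ENO1 carry the asterisk in all settings that keep the 4 libraries, no gene carries it without a Ctrl library, and no value changes sign.

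The 3′ UTRs were searched for CAGCTCA, a sequence found in an earlier scan of these same libraries, so its presence is a description and supports nothing. It stood in the 3′ UTR of 17.5% of 12619 genes. Of the 9 genes other than GPI, PGK1 and ENO1 had 1 copy each, both of them past the threshold, while GAPDH, also past it, and the 6 genes not past it had 0. A site of each is shown with 11 bases on either side, capitals marking the match and coordinates its position in GRCh37.
PGK1 (chrX:77381483-77381489, plus strand): gcacagcatctCAGCTCAtcttcactgca
ENO1 (chr1:8921353-8921359, minus strand): tcccctcgtgtCAGCTCAggcagctcgag
The copies of PGK1 and ENO1 lie 156 and 60 bases after the stop codon. The 3′ UTR of PGK1, with 3465 bases, was the longest of those given here, and that of ENO1 had 360. A longer 3′ UTR has more places for a match.

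Of the other genes of glucose uptake, upper glycolysis and lactate handling, 4 of 14 fell past the threshold. With edgeR, DESeq2 or limma-voom 0 rose past it. At an unadjusted p under 0.05 in edgeR 6 were lower and 1 higher. That level was common: with upper-quartile scaling, 4959 of all 13172 genes reached it in edgeR, in either direction. The median log2 fold change of the 14 genes was -0.22. PFKL, the liver form of phosphofructokinase, the committed step above aldolase, had 139 and 142 CPM in Ctrl and 65.2 and 69.0 CPM in PRMT3-KD, a log2 fold change of -1.07 (adjusted p = 0.0142, edgeR). The others were SLC16A3, a lactate exporter, at -0.81 (adjusted p = 0.0156, edgeR), ADPGK, an ADP-dependent glucokinase, at -0.75 (adjusted p = 0.0296, edgeR), and SLC2A1, the glucose transporter GLUT1, at -0.65 (adjusted p = 0.0204, edgeR). LDHA, which turns pyruvate into lactate, had 31.9 and 28.7 CPM in Ctrl and 26.7 and 24.5 CPM in PRMT3-KD, with a log2 fold change of -0.24 (adjusted p = 0.176, edgeR).

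Tissue paralogs of the 10 enzymes were few. Of those listed, 3 were tested and none passed the threshold in edgeR or had an unadjusted p under 0.05, among them BPGM, which makes 2,3-bisphosphoglycerate beside the PGK1 step, at a log2 fold change of 0.03 (adjusted p = 0.910, edgeR). GAPDHS had 1, 0, 0 and 0 counts and PGAM4 had 0, 3, 0 and 1, and PGK2, PGAM2 and PKLR were not analysed here. Of 17 tested genes of pathways that branch from these steps, 7 were lower and 3 higher at an unadjusted p under 0.05 in edgeR. Over all genes, 4959 of 13172 reached that level with upper-quartile scaling, in either direction. The median log2 fold change of the 17 genes was -0.40, and 1 gene fell and 0 rose past the threshold in edgeR. That gene was GLO1, which clears the methylglyoxal formed from triose phosphates, with 183 and 184 CPM in Ctrl and 32.6 and 22.3 CPM in PRMT3-KD, a log2 fold change of -2.74 (adjusted p = 0.0142, edgeR). GLO1, like PFKL, is a gene the study picked from these libraries. PHGDH, which draws 3-phosphoglycerate into serine synthesis, had 224 and 229 CPM in Ctrl and 183 and 117 CPM in PRMT3-KD, with a log2 fold change of -0.59 (adjusted p = 0.138, edgeR). With DESeq2 and with limma-voom 4 of these 17 genes were past the threshold as lower.

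Of 13 regulators of transcription and of PKM splicing, 2 fell and 1 rose past the threshold. HIF1A, the oxygen-regulated activator of glycolytic genes, had 738 and 729 CPM in Ctrl and 196 and 289 CPM in PRMT3-KD, a log2 fold change of -1.60 (adjusted p = 0.0204, edgeR). MXI1, an antagonist of MYC, stood at -0.89 (adjusted p = 0.0482, edgeR), a call that was lost with limma-voom (adjusted p = 0.0602) and with the replicate block (adjusted p = 0.0504, edgeR). EPAS1, another HIF alpha subunit, stood at 0.99 (adjusted p = 0.0192, edgeR). HIF1A is also among the genes the study named from these libraries.

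GAPDH and PGK1 belong to a list of 15 genes commonly used as references in qPCR. Of the other 13, 0 passed the threshold in edgeR, DESeq2 or limma-voom, with log2 fold changes from -0.46 to 0.43 and a median of -0.16, and 3 of them had an adjusted p under 0.05. At an unadjusted p under 0.05 in edgeR, 5 of the 13 were lower and 2 higher. Over all genes, 4959 of 13172 reached that level with upper-quartile scaling, in either direction. GAPDH at -0.68 and PGK1 at -1.89 thus lay outside the range of the other 13 genes.

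**Figure D5:**
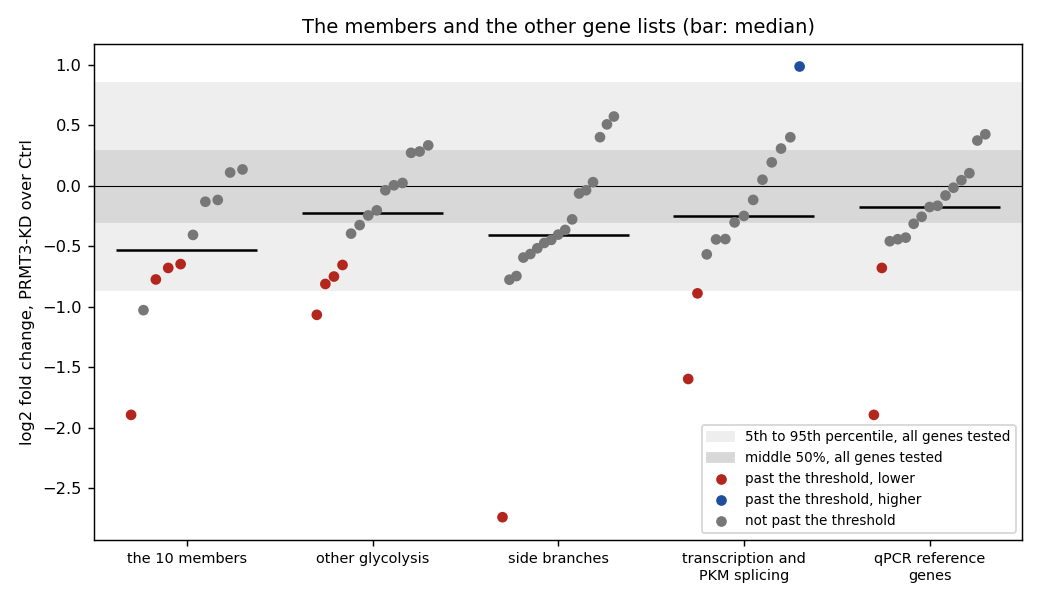
log2 fold change of PRMT3-KD over Ctrl (vertical axis) for the 10 genes and for 4 other lists, 1 point per gene with a bar at the list median and grey bands for all genes tested. The medians are -0.53 for the 10 genes, -0.22, -0.40 and -0.25 for other glycolysis, side branches and regulators, and -0.17 for the reference genes, which here include GAPDH and PGK1.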

How the data were processed

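The authors aligned reads to hg19 with TopHat, obtained unnormalized gene counts with Cufflinks and tested them with DESeq2, and they deposited whole-number counts per gene for the 4 libraries. CASAVA is also named in the submitters' processing notes. Versions, annotation and strandedness are not given in the sources used here. Libraries were grouped by their sample titles.

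Of 15576 entries, 1 duplicate was removed. The edgeR package 4.0.16 was run in R 4.3.3. Low genes were removed with filterByExpr (minimum count 10, minimum total 15), and the rest were scaled by TMM and compared with glmQLFit and glmQLFTest over 13172 genes with Benjamini-Hochberg adjustment. Standard errors came from the log2 fold change and F. The fits were run on simulated counts, where the only requirement was a small error of the log2 fold changes. Calls were also counted on the simulated data, but no requirement was set on them or on the p-values. Library totals ran from 24804250 to 29756313 counts, so a gene with few counts is measured with low precision. Positions, lengths and sequences came from GRCh37 with GENCODE 44 lifted to it, and the promoter and 3′ UTR searches used Python 3.11.15. Some sequence results and 1 listed paralog are not reported here.

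The 10 genes and all lists were chosen with earlier results of these data known. The named genes are the 10, every listed gene past the threshold, and HIF1A, PFKL, LDHA, BPGM and PHGDH. Cell type markers were summed by list, and AQP4, CD44, GFAP, SOX9, STMN2, TUBB3 and VIM were named after their values were seen. Alternatives were DESeq2 1.42.0, limma-voom (limma 3.58.1) with group weights, other scalings and filters, a replicate block, other fold limits and leaving out each library. Ratios of neighbouring steps without each library were added after the data were seen. The labels do not say that the replicate numbers pair libraries, so they were not taken as pairs. Differences of replicates between groups had a correlation of 0.0222. That value cannot decide on pairing, because the Ctrl libraries hardly differed (biological coefficient of variation 0.0107).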

Additional observations from a re-analysis of the deposited data

How the results depend on the processing

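GPI, GAPDH, PGK1 and ENO1 passed the threshold, and no other of the 10 genes did, under DESeq2, limma-voom, 3 other scalings, 2 other filters and the replicate block, and no log2 fold change of the 10 genes reversed. With the replicate block the count past the threshold was 4, and TPI1 (adjusted p = 0.0734, edgeR) was the only call of the 10 genes that it ended. At a 2-fold limit and by glmTreat against 1.5-fold the count was 1. The filter of 10 counts or more in each library left ALDOC untested. The summed level moved to a log2 ratio of -0.63 without PKM.

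With each library left out in turn, in which the lone library is assumed to vary like the other group, the count past the threshold lay between 0 and 4, and by the adjusted p alone between 0 and 8 lower and between 0 and 2 higher. Log2 fold changes lay between -0.80 and -0.51 for GPI, -0.83 and -0.54 for GAPDH, -1.92 and -1.87 for PGK1, -0.93 and -0.64 for ENO1 and -1.39 and -0.73 for ALDOC. Without a Ctrl library the spread is that between the PRMT3-KD libraries, and no gene of the table passed the threshold. Without PRMT3-KD replicate 1, 1634 genes were lower, and without replicate 2, 1636, against 786.

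The side branches had 4 lower with DESeq2 and limma-voom, 3 with the replicate block and 2 with median-of-ratios scaling, library totals only or at least 10 counts in every library. Regulators had 1 lower with limma-voom and the replicate block, where MXI1 lost its call. With each library left out, counts lower lay between 0 and 4 for other glycolysis, 0 and 1 for paralogs, 0 and 5 for side branches, 0 and 3 for regulators and 0 and 2 for reference genes, and counts higher between 0 and 1 for side branches, regulators and reference genes. The cause of these moves was not tested. In the fits that keep all 4 libraries, genes lower over the whole table at 1.5-fold were between 754 (library totals only) and 996 (DESeq2), with 902 by limma-voom. With 7 to 20 counts, ALDOC is limited by depth.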
